A study of Homo sapiens with 4 samples.

Results

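Interferon-stimulated genes are the antiviral genes that cells switch on when type I or type III interferons bind their receptors. The series compares TD cells with parental A549 cells, and 50 genes of this class were described here, chosen by a list of symbols. All 50 were found by Ensembl identifier among the 57820 genes of the files. A549 is an established human lung adenocarcinoma line of epithelial morphology. TD cells are A549 cells described by the labels as mesenchymal-like after induction with transforming growth factor beta (TGF-β). They received TGF-β at 2 ng/ml every 3 days, and both lines were kept in medium with 10% serum. The total time on TGF-β is not given in the sources used here, nor whether TD is a clone. No interferon or virus was named for either line. Each group had 2 libraries of RNA-seq, TD replicates 1 and 2 and A549 replicates 1 and 2.

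The libraries held 28237849 and 44133836 gene counts in TD and 26729278 and 29381872 in A549. TD replicate 2 stood apart in reads from pseudogenes, which made up 0.373% of its gene counts against 1.11% in TD replicate 1 and 1.13% to 1.15% in A549. Results are therefore given without that library where they rest on it. Of the cell-state markers, all 5 epithelial markers (EPCAM, CDH1, KRT8, KRT18, KRT19) were lower in TD and all 4 mesenchymal markers (VIM, CDH2, FN1, COL1A1) were higher. KRT19 lost its call without either A549 library, and EPCAM and KRT19 could enter the test only through their A549 counts. CDKN2A, a gene known to be deleted in A549, had 0 counts in all libraries of both lines. MTAP, a neighbour known to be lost with it, had 35 and 44 counts in TD and 15 and 16 counts in A549 (log2 change 1.08, adjusted p = 0.0439 by edgeR), and its call ended without either A549 library. Among 6 leukocyte markers, CD3E had 0 counts throughout, and the summed level of the 6 was 0.271 to 0.482 CPM (counts scaled for library size) in TD and 0.862 to 0.876 CPM in A549. CD14, the only marker of these tested, had 10 and 7 counts in TD and 23 and 23 in A549. It was called lower, but it too could enter the test only through its A549 counts. PTPRC had 4 and 3 counts in TD and 0 and 2 in A549.

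In textbook outline, interferon receptors activate the kinases JAK1 and TYK2, which phosphorylate STAT proteins. STAT2 and IRF9 belong to a complex that binds the interferon-stimulated response element (ISRE), a DNA motif in front of many of the genes described here. A second motif, the gamma-activated site (GAS), is known best from the response to interferon gamma. The proteins made from these genes bind or degrade viral RNA, block viral entry and budding, or feed back on interferon signalling, and lung epithelium is a well-known site of this response.

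The promoters of the 50 genes often carried the first of these motifs. A RefSeq window of 250 bases before to 50 bases after the start of transcription (build GRCh38.p14) was matched by symbol for 42 of the 50 genes. The ISRE core searched was GAAANNGAAA on either strand, which reads TTTCNNTTTC on the other strand, and the GAS core was TTCNNNGAA, which is its own reverse complement. The ISRE core was present for 27 of the 42 genes (64.3%), against 4.38% of all 27305 symbols with such a window. At least 2 copies, overlapping copies included, were present for 15 of the 42 (35.7%), against 0.311% of all symbols. The GAS core was present for 13 (31.0%), against 9.38% of all symbols, and in 5 genes (BST2, EPSTI1, IFI27, IFITM1, MX1) it overlapped an ISRE core. These are matches of letters and not evidence of binding. The stretches below show ISRE cores in capitals as they stand before 8 genes discussed below (for IFIT5 the 2 that end before its start), and for IRF1 the GAS core, each read 5′ to 3′ on the strand of the gene.
IFIT1 (chr10:89392497-89392539, plus strand): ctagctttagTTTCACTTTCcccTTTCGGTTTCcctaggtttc
IFIT3 (chr10:89327831-89327894, plus strand): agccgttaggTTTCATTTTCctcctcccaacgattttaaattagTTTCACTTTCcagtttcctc
IFIT5 (chr10:89414513-89414567, plus strand): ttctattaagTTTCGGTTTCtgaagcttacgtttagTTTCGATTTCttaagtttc
ISG15 (chr1:1013374-1013409, plus strand): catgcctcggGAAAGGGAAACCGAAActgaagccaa
IFI6 (chr1:27672266-27672358, minus strand): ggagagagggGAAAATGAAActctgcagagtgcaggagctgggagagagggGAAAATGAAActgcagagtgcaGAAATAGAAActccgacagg
IFI27 (chr14:94110618-94110660, plus strand): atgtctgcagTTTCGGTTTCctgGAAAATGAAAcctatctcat
BST2 (chr19:17405735-17405770, minus strand): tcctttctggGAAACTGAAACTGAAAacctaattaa
PARP9 (chr3:122564322-122564351, minus strand): gggcgcaaagTTTCAGTTTCgcttccctgg
IRF1 (chr5:132490879-132490907, minus strand): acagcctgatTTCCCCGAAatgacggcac
A further IFIT5 core begins in the last 4 letters shown, in lower case, and runs past the start. In ISG15 and BST2 the capitals are 2 overlapping copies each, and in IFI6 they are 3 separate copies, of which 2 share the letters GAAAATGAAA. The PARP9 core begins 41 bases before the start of PARP9 and, on the other strand, 6 bases before the start of DTX3L, the gene that runs the opposite way from the same stretch.

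Nearly the whole class was lower in TD. Levels are CPM scaled by the trimmed mean of M-values (TMM), and a gene was called at an adjusted p below 0.05 in edgeR's quasi-likelihood test with Benjamini-Hochberg adjustment over all 17785 genes tested. Of the 50 genes, 48 passed the filter on low counts, and EPSTI1 and RTP4 did not. Of the 48, 47 were called lower, 0 were called higher and 1, IFI16, was not called. All 48 had a fitted change below 0, so 0 were higher at an unadjusted p below 0.05 as well, and DESeq2 and limma-voom also called 0 higher. Over all genes tested, 21.4% were called lower and 43.0% were called in either direction. At least 2-fold lower were 45 of the 48, against 12.3% of all genes tested, and at least 10-fold lower were 32, against 4.05%. In all 50 genes both TD libraries lay below both A549 libraries, an arrangement that 37.5% of all genes tested showed. The median log2 change, TD over A549, was -3.90 for the 48 and -0.04 for all genes tested. Of the 48, 7 would not have passed the filter on their TD libraries alone, so they could enter the test only because they were high in A549. These were OAS2, MX2, IFITM1, IFITM3, BST2, UBA7 and XAF1, and having passed in this way they had to differ, so their values are given as a description. The other 41 passed in each group separately, of which 40 were called lower, with a median of -3.76. Of these 41, 38 were at least 2-fold lower and 25 at least 10-fold lower.

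Summed over the 50 genes, the level was 816 and 859.97 CPM in the TD libraries, against 6247 and 6525 CPM in the A549 libraries, which leaves 13.1% of the A549 sum. RNF213 made up 35.1% of the TD sum and 5.88% of the A549 sum. Among the 41 genes that passed in each group, TD kept at most 1% of the A549 level in 4, at most 5% in 13, and over 50% in 3. In such bulk RNA, fewer cells expressing a gene and less RNA per cell cannot be told apart. Without TD replicate 2, 49 genes could be tested and all 49 were called lower, in a fit whose spread came from the A549 pair alone. For the 48 genes tested in all libraries, A549 replicate 2 was 0.790 to 1.24 times replicate 1. For the 41 genes that passed in each group, TD replicate 2 was 0.681 to 1.36 times replicate 1.

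**Figure D1:**
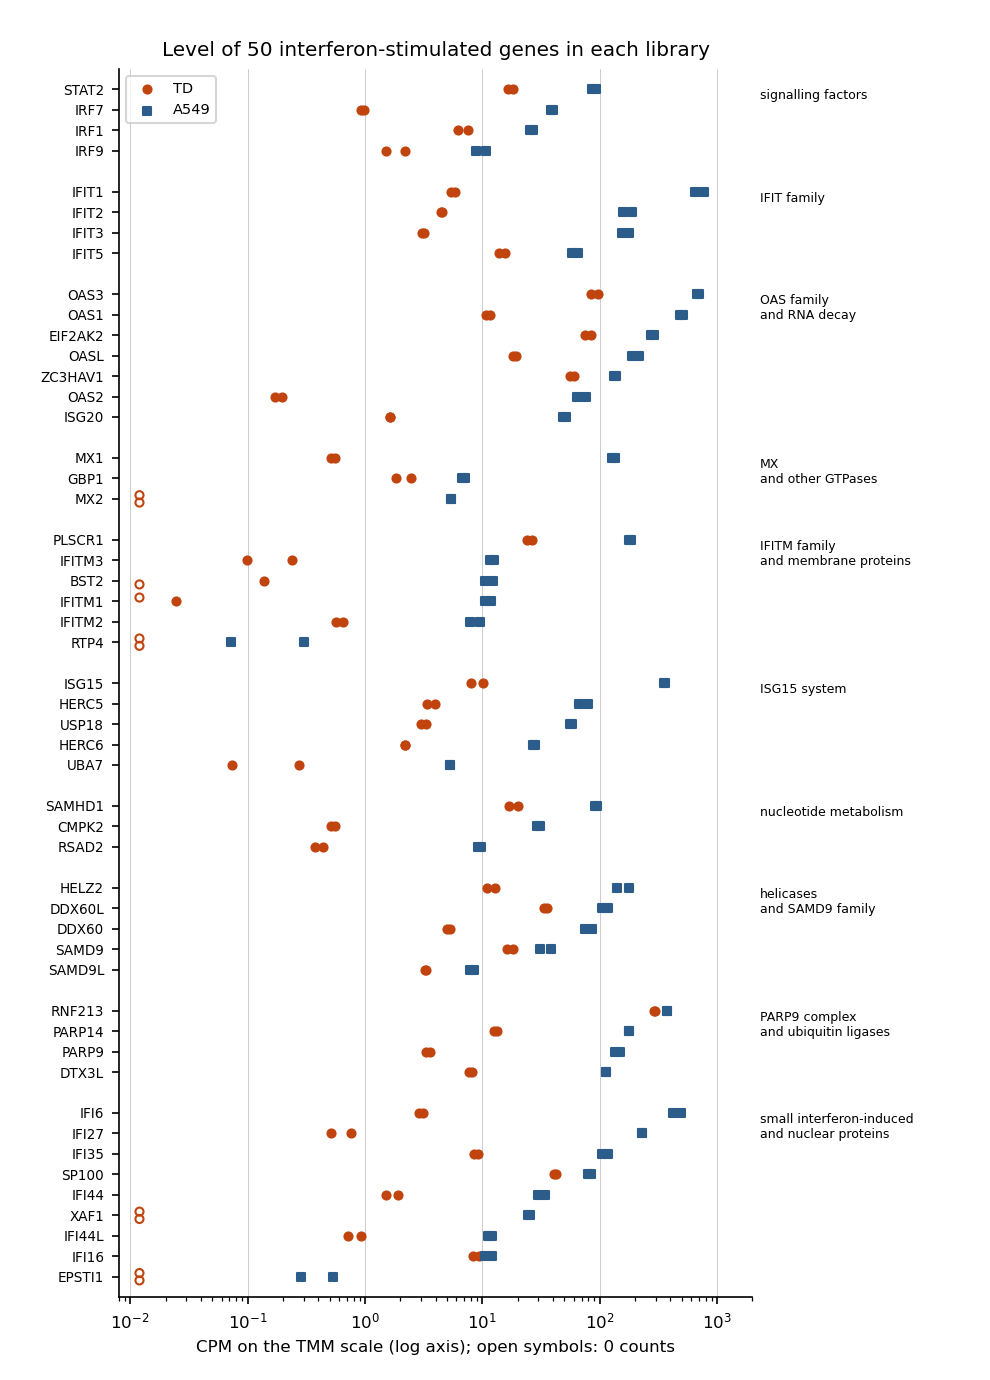
Level of each of the 50 genes in each library, as CPM on the TMM scale on a log axis, with TD as circles, A549 as squares and open symbols at the left edge for 0 counts. Genes are grouped by role, and for each of the 50 both TD points lie left of both A549 points, narrowly for IFI16 and RNF213.

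**Figure D2:**
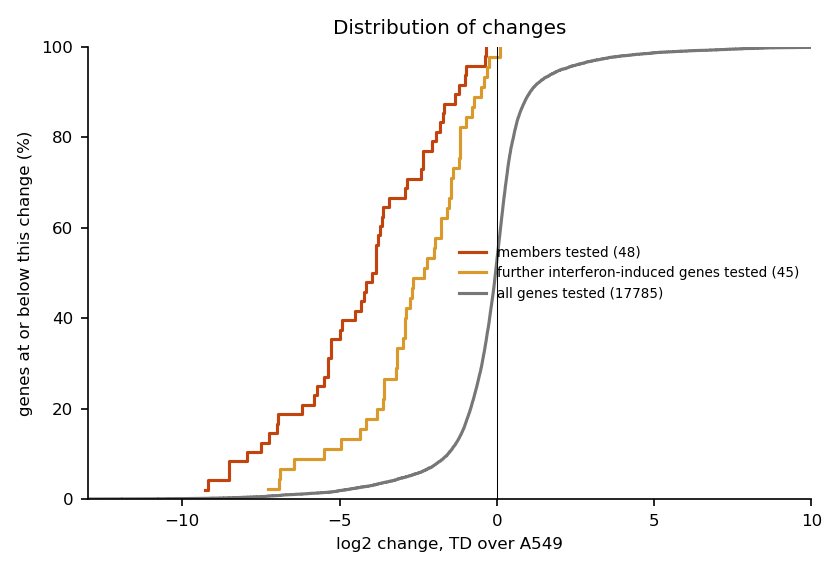
Cumulative share of genes (vertical axis, percent) at or below a given log2 change, TD over A549, for the 48 tested genes of the class, for 45 further interferon-induced genes and for all 17785 genes tested. The class has its median at -3.90, while all genes are centred near 0. The curves of the class and of the further genes include genes that could enter the test only through A549.

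The 4 signalling factors within the class were all lower in TD, whereas the kinases and factors outside it, given further below, were divided. IRF7, which amplifies interferon production, stood at 0.930 and 0.984 CPM in the TD libraries, against 40.4 and 38.4 CPM in the A549 libraries. The groups were far apart (log2 change -5.35, SE 0.11, adjusted p = 3.08e-05 by edgeR). STAT2, a subunit of the complex that binds the ISRE, had 18.2 and 16.6 CPM in TD and 93.1 and 85.2 CPM in A549 (log2 change -2.36, SE 0.10, adjusted p = 0.000107 by edgeR). IRF9, which gives that complex its DNA binding, had 2.21 and 1.52 CPM in TD and 10.8 and 8.86 CPM in A549. IRF1, whose promoter holds the GAS core shown above and no ISRE core, had 6.20 and 7.50 CPM in TD and 27.2 and 25.7 CPM in A549. IRF1 kept 25.9% and STAT2 19.5% of the A549 level, against 2.43% for IRF7.

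The IFIT family, proteins that bind viral RNA, lay on chromosome 10 as 4 neighbouring genes and fell unequally. IFIT1 (ENSG00000185745.8), which recognises RNA caps that lack ribose methylation, had 5.38 and 5.83 CPM in TD, against 652 and 777 CPM in A549. TD kept 0.784% of it (log2 change -6.99, SE 0.15, adjusted p = 3.2e-05 by edgeR). IFIT2 and IFIT3, known partners of IFIT1, kept 2.60% and 1.88%. IFIT3 had 3.17 and 3.05 CPM in TD and 154 and 177 CPM in A549. IFIT5 had 13.9 and 15.6 CPM in TD and 57.6 and 65.8 CPM in A549, so that 23.9% remained (log2 change -2.06, SE 0.11, adjusted p = 0.00025 by edgeR). Per kilobase of exon, IFIT5 was the highest of the 4 in TD, at 3.67 CPM per kb against 1.10 to 1.21, and the lowest in A549, at 15.4 against 42.1 to 155. ISRE cores stood before both IFIT1 and IFIT5, as the stretches above show. IFIT1, IFIT2 and IFIT3 overlap LIPA on the other strand, and with the strand setting unknown reads in the overlap may be uncertain.

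The OAS enzymes make oligoadenylates that activate RNase L, and these genes too spread over a wide range. OAS2 had 0.172 and 0.197 CPM in TD, against 63.6 and 75.8 CPM in A549. That was the largest fall among the 7 genes of the OAS and RNA decay group (log2 change -8.52, SE 0.18). It is given as a description, because OAS2 entered the test only through A549. OAS1, of the same cluster on chromosome 12, had 11.7 and 10.8 CPM in TD and 488 and 517 CPM in A549, and 2.24% remained. OAS3, which lies between them, had 84.5 and 96.0 CPM in TD and 674 and 698 CPM in A549, and 13.2% remained. OASL, a relative without the enzyme activity, kept 9.31%, and the exonuclease gene ISG20 kept 3.25%. EIF2AK2, which encodes the RNA-activated kinase PKR, had 75.2 and 84.5 CPM in TD and 273 and 289 CPM in A549. ZC3HAV1, the antiviral protein ZAP that binds CpG-rich RNA, changed least in the group, with 55.3 and 60.7 CPM in TD and 133 and 137 CPM in A549 (log2 change -1.22, SE 0.08, adjusted p = 0.000498 by edgeR).

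Among the GTPases, MX1, which traps the nucleocapsids of influenza and other viruses, had 0.551 and 0.516 CPM in TD and 126 and 136 CPM in A549, with 0.407% remaining. MX2, its paralog on chromosome 21, known to restrict HIV, had 0 counts in both TD libraries and 151 and 159 counts in the A549 libraries. With 3 counts over the TD group in place of 0, it was at least 125-fold lower, a description because MX2 entered the test only through A549. GBP1, a guanylate-binding protein known best as a target of interferon gamma, had 1.83 and 2.48 CPM in TD and 6.75 and 7.15 CPM in A549. It kept 31.0% (log2 change -1.68, SE 0.22, adjusted p = 0.00374 by edgeR).

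The membrane proteins of the class were below 1 CPM in TD, except PLSCR1. IFITM1, IFITM2 and IFITM3, which hinder the fusion of viruses with the cell, are closely similar genes on chromosome 11, and reads may have been split or dropped among them. IFITM1 had 0 and 1 counts in the TD libraries, against 328 and 315 in the A549 libraries, 779-fold lower by counts (95% exact interval 139 to 30824, counting error only). IFITM3 had 0.241 and 0.0984 CPM in TD and 12.6 and 11.6 CPM in A549. IFITM2 had 0.655 and 0.566 CPM in TD and 9.56 and 7.85 CPM in A549, so its remaining share of 7.01% was the highest of the 3. BST2, the tetherin that holds budding virus at the surface, had 4 and 0 counts in TD and 293 and 364 in A549 (log2 change -7.50, SE 0.78). IFITM1, IFITM3 and BST2 entered the test only through A549, so their values are a description. PLSCR1, a phospholipid scramblase, had 26.6 and 24.1 CPM in TD and 179 and 185 CPM in A549, with 13.9% remaining. RTP4, not tested, had 0 counts in TD and 2 and 9 counts in A549.

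ISG15 is a ubiquitin-like protein that is joined to other proteins, and its whole system was lower. ISG15 itself had 8.06 and 10.1 CPM in TD, against 360 and 351 CPM in A549, with 2.55% remaining (log2 change -5.29, SE 0.14, adjusted p = 4.38e-05 by edgeR). UBA7, the enzyme that activates it, had 8 and 3 counts in TD and 147 and 158 in A549. HERC5, the ligase that attaches it in human cells, had 3.41 and 3.98 CPM in TD and 67.2 and 80.3 CPM in A549. HERC6, the neighbour of HERC5 on chromosome 4, kept 7.95%. USP18, which removes ISG15 from proteins and also damps the interferon receptor, had 3.00 and 3.34 CPM in TD and 56.1 and 57.6 CPM in A549. All 5 genes were at least 10-fold lower, against 4.05% of all genes tested. UBA7 entered the test only through A549, so its value is a description.

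RSAD2 (viperin) and CMPK2, which lie head to head on chromosome 2 and make an altered nucleotide that stops viral RNA synthesis, were low in TD. They overlap on opposite strands, so reads there are uncertain. RSAD2 had 0.379 and 0.443 CPM in TD and 9.66 and 9.17 CPM in A549. CMPK2 had 0.551 and 0.516 CPM in TD and 29.4 and 30.8 CPM in A549. SAMHD1, which breaks down the nucleotides that DNA viruses and retroviruses need, kept more, with 16.8 and 20.3 CPM in TD and 91.4 and 95.6 CPM in A549 (19.8% remaining).

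The helicases and the SAMD9 family were lower in all 5 cases. DDX60 had 5.03 and 5.29 CPM in TD and 74.8 and 86.0 CPM in A549, with 6.42% remaining. DDX60L, its paralog on chromosome 4, had 33.3 and 35.7 CPM in TD and 105 and 118 CPM in A549, with 30.8% remaining. DDX60L overlaps PALLD, a gene higher in TD, on the other strand, so reads there are uncertain. SAMD9 had 16.3 and 18.2 CPM in TD and 31.2 and 38.7 CPM in A549 (log2 change -1.02, SE 0.14, adjusted p = 0.00431 by edgeR), and SAMD9L kept 40.1%. HELZ2, a helicase that acts as a coactivator of nuclear receptors, had 11.1 and 12.9 CPM in TD and 178 and 140.2 CPM in A549. The ratio of its A549 libraries, 0.790, was the lowest in the class, and both lay far above the TD values.

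PARP9 and DTX3L work as a complex, and both fell. The genes overlap on opposite strands, so their shared reads are uncertain. PARP9 had 3.55 and 3.34 CPM in TD and 136 and 148 CPM in A549, with 2.42% remaining. DTX3L had 7.72 and 8.19 CPM in TD and 113 and 114 CPM in A549, with 7.03% remaining. PARP14, their neighbour on chromosome 3 and a mono-ADP-ribosyltransferase, kept 7.35%. RNF213, a very large ubiquitin ligase, was the least changed gene of all that were called. It had 291 and 297 CPM in TD and 374 and 377 CPM in A549, so 78.3% remained (log2 change -0.35, SE 0.07, adjusted p = 0.0177 by edgeR). Leaving out either A549 library ended the call (adjusted p = 0.0554 without the first and 0.0619 without the second, edgeR).

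The last group holds small interferon-induced proteins and nuclear proteins, and it contained both XAF1, with 0 counts in TD, and the gene that was not called. XAF1, a partner of the apoptosis inhibitor XIAP, had 0 counts in both TD libraries and 706 and 725 counts in A549, at least 578-fold lower. That is a description, because XAF1 entered the test only through A549. IFI27, a mitochondrial protein, had 0.758 and 0.516 CPM in TD and 231 and 229 CPM in A549 (log2 change -8.52, SE 0.16, adjusted p = 3.08e-05 by edgeR). IFI6, with its 3 ISRE cores, had 3.10 and 2.90 CPM in TD and 491 and 420.2 CPM in A549, with 0.659% remaining. IFI35, IFI44 and IFI44L kept between 5.40% and 8.08%. SP100, which builds nuclear bodies, had 42.4 and 41.0 CPM in TD and 79.4 and 84.2 CPM in A549, with 51.0% remaining. IFI16, a sensor of DNA, had 8.34 and 9.34 CPM in TD and 10.6 and 12.2 CPM in A549. Its log2 change of -0.36 (SE 0.13) was not called (adjusted p = 0.0867 by edgeR). In other edgeR fits IFI16 was called with library totals as the scaling (adjusted p = 0.0347), with a filter of 5 CPM (0.0383), with pseudogenes left out (0.0153) and without TD replicate 2 (0.015, with the spread of the A549 pair alone). It was also called in 3 of the 4 fits that left out pseudogenes and 1 library. EPSTI1, not tested, had 0 counts in TD and 8 and 16 counts in A549.

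**Figure D3:**
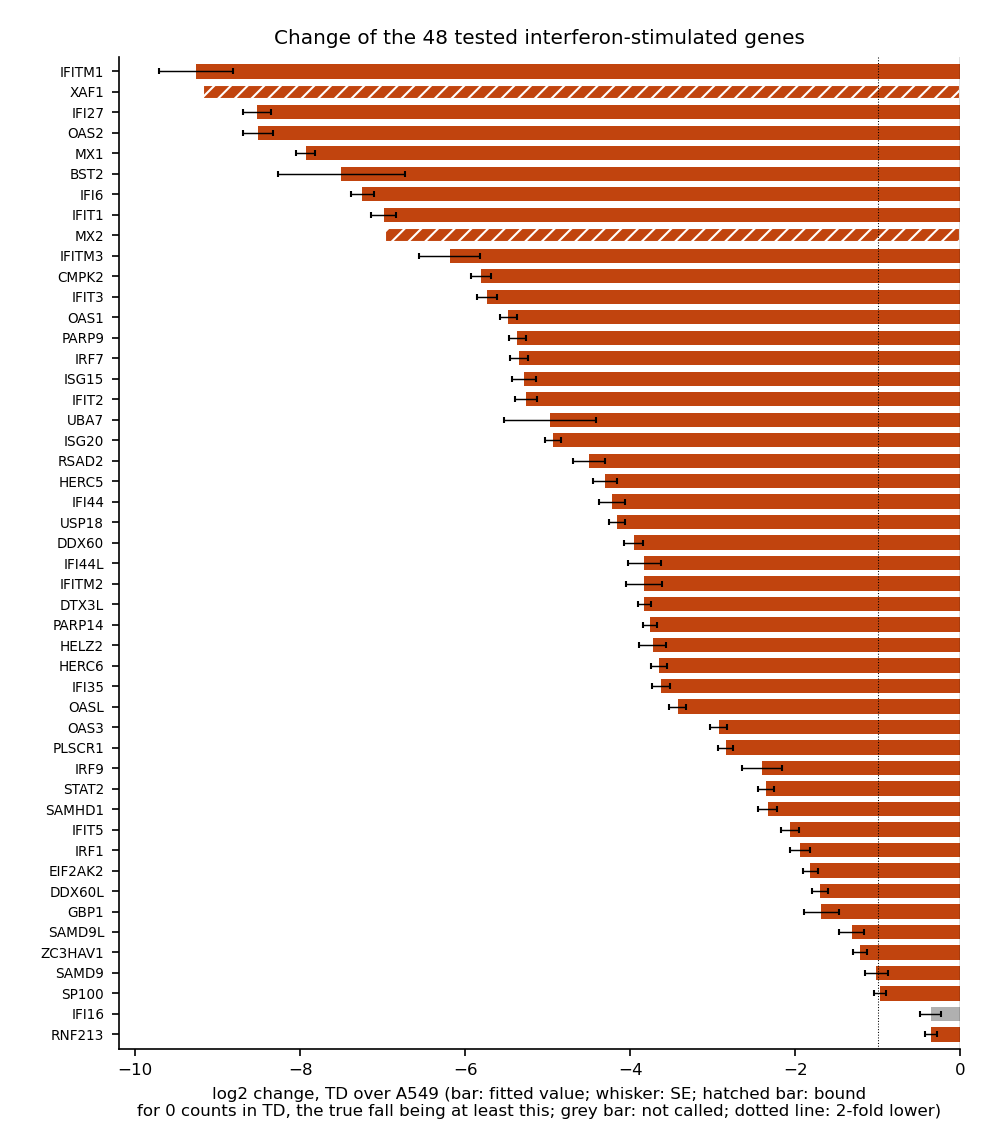
Log2 change, TD over A549, of the 48 tested genes, sorted, with the fitted value as the bar and its SE as the whisker. Hatched bars show bounds for XAF1 and MX2, which had 0 counts in TD, the grey bar is IFI16, which was not called, and the dotted line marks a 2-fold fall.

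Per kilobase of annotated exon, the order of the genes differed between the lines. In TD the highest were OAS3 at 10.9, RNF213 at 10.3, ISG15 at 9.63, EIF2AK2 at 7.42 and ZC3HAV1 at 7.04 CPM per kb. In A549 they were IFI6 at 527, ISG15 at 378, IFIT1 at 155, OAS1 at 102 and OAS3 at 83.1 CPM per kb. The TD values of OAS3, RNF213 and ISG15 lie too close together to be ordered, given that the ISG15 libraries alone ran from 8.06 to 10.1 CPM. Across the 41 genes that passed the filter in each group, Pearson's r between the log2 A549 level and the log2 change was -0.335. This is a correlation across genes of the same 4 libraries, and the A549 level enters both measures.

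Changes were set beside the ISRE cores as a description. Of the 40 genes with both a promoter window and a test, the 25 with an ISRE core had a median log2 change of -4.31 and were all called lower. The 15 without one had a median of -2.36, and 14 were called lower. Over the genes that passed the filter in each group, the medians were -4.09 for the 22 with a core and -2.35 for the 14 without. RNF213, IFI16 and SP100, the 3 least changed genes of the class, had no core in their windows, but neither did XAF1, which had 0 counts in TD. The tested genes outside the class still include the other interferon-induced genes given further below. Of these genes outside the class, 32.7% of the 419 with an ISRE core were called lower, against 23.2% of the 11044 without. Without A549 replicate 1 these shares were 23.1% and 14.0%, and without A549 replicate 2 they were 22.3% and 14.0%.

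**Figure D4:**
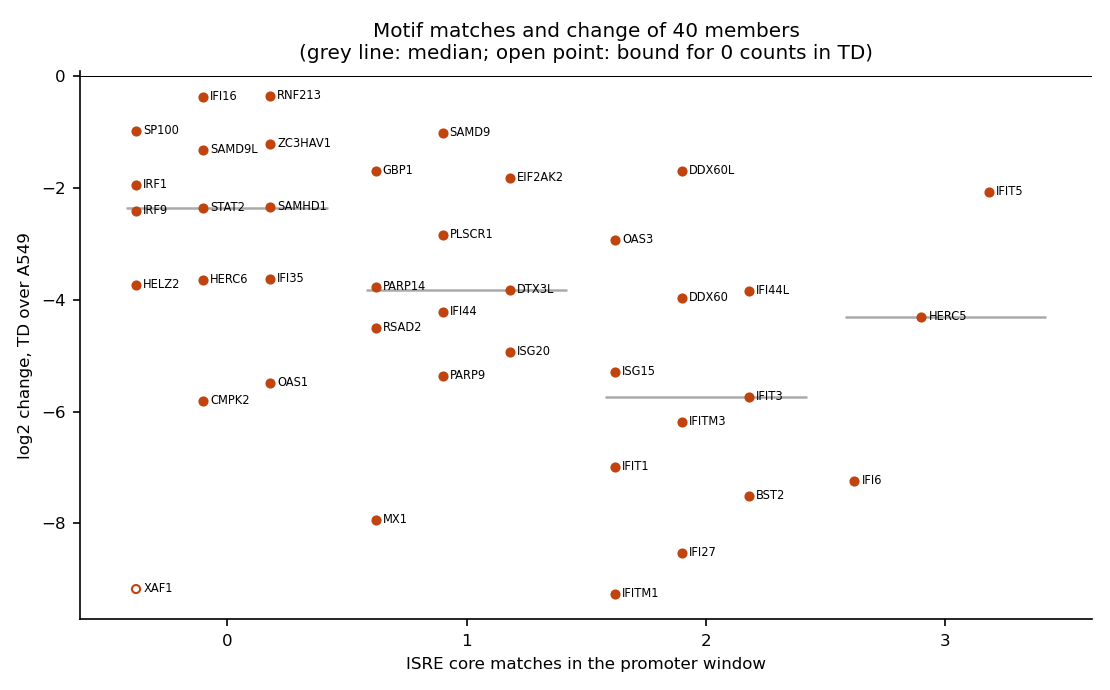
Log2 change, TD over A549 (vertical axis), of 40 genes against the number of ISRE core matches in the promoter window, taking the window with most matches where a gene has several. Grey lines are medians, the open point is the bound for XAF1, and the groups overlap, IFIT5 with 3 matches lying above the median of the genes with none.

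The rest of the pathway was examined in 6 lists. In the broadest, 47 further interferon-induced genes outside the class, 42 of 45 tested genes were lower and 3 were not called. Among all genes tested, 21.4% were called lower. BATF2, CASP1, CXCL11, GBP4, IFI30, LAMP3, LGALS9, PARP10 and TNFSF10, all called lower, would not have passed the filter on their TD libraries alone. They could enter the test only through A549, so their values are given as a description. TNFSF10, the death ligand TRAIL, had 0 and 1 counts in TD and 76 and 84 counts in A549, 194-fold lower by counts (95% exact interval 34.3 to 7705). LAMP3, a lysosomal membrane protein, had 1 and 2 counts in TD and 161 and 168 in A549, 133-fold lower by counts (45.1 to 648). The median log2 change of the 45 was -2.33. Both this median and the count of 42 include the genes that entered only through A549, which had to differ.

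Sensors were mostly lower as well, with an exception, whereas every ligand that was lower could enter the test only through A549. Of 5 tested interferon ligands, 4 were lower and 1 was higher, against 21.4% lower and 21.6% higher among all genes tested. The 4 lower ligands, IFNB1, IFNL1, IFNL2 and IFNL3, would not have passed the filter on their TD libraries alone. They could enter the test only through A549, so their values are given as a description. IFNL1, a type III interferon, had 0 and 2 counts in TD and 134 and 146 counts in A549, 169.7-fold lower by counts (46.5 to 1408). IFNL2, nearly identical in sequence to IFNL3, had 1 and 0 counts in TD and 70 and 70 in A549. IFNB1, named here after its values were seen, had 0 and 6 counts in TD and 38 and 57 in A549, and leaving out A549 replicate 1 or 2 ended its call (adjusted p = 0.125 or 0.159 by edgeR). IFNE, a type I interferon known for constitutive epithelial expression, was higher, with 6.17 and 6.17 CPM in TD and 1.54 and 0.640 CPM in A549 (log2 change 2.50, SE 0.43, adjusted p = 0.00954 by edgeR). The log2 change of IFNE was 3.22 without A549 replicate 1 and 1.97 without A549 replicate 2. Of 10 tested sensors and adaptors, 6 were lower and 1 higher. IFIH1, the RNA sensor MDA5, had 1.48 and 1.52 CPM in TD and 90.6 and 97.4 CPM in A549. TLR3, an endosomal RNA receptor, had 0.379 and 0.492 CPM in TD and 8.30 and 9.98 CPM in A549. CGAS, the DNA sensor, was the exception, with 9.82 and 12.6 CPM in TD and 0.790 and 0.438 CPM in A549 (log2 change 4.19, SE 0.33, adjusted p = 0.0008 by edgeR).

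Of 6 receptor chains, 2 were lower and 4 were not called, against 21.4% lower among all genes tested. IFNGR1 had 26.1 and 28.3 CPM in TD and 57.1 and 57.1 CPM in A549 (log2 change -1.07, SE 0.08, adjusted p = 0.00067 by edgeR). IFNAR2 had 12.8 and 10.5 CPM in TD and 16.7 and 17.6 CPM in A549, and leaving out either A549 library (adjusted p = 0.121 and 0.154 by edgeR) left 1 receptor chain lower. Without TD replicate 2, 4 receptor chains were lower. Of 11 kinases and factors, 5 were lower and 1 higher, against 21.4% and 21.6% of all genes tested. STAT3, which carries signals of interleukin 6 type cytokines, was higher, with 116 and 125 CPM in TD and 71.6 and 68.7 CPM in A549. The kinase JAK1 had 157 and 167 CPM in TD and 149 and 160.3 CPM in A549 and was not called (log2 change 0.06, SE 0.08, adjusted p = 0.573 by edgeR).

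Of 9 tested negative regulators, 4 were higher and 2 lower, against 21.6% higher and 21.4% lower among all genes tested. SOCS3, an inhibitor of cytokine receptors, had 17.6 and 19.97 CPM in TD and 7.33 and 8.70 CPM in A549. TRIM24, a corepressor, had 32.0 and 35.3 CPM in TD and 19.3 and 20.3 CPM in A549. PTPN6, a phosphatase, had 1.93 and 2.14 CPM in TD and 15.4 and 14.4 CPM in A549. PIAS1, an inhibitor of STAT signalling, had 27.5 and 29.5 CPM in TD and 34.4 and 35.6 CPM in A549, and leaving out A549 replicate 1, A549 replicate 2 or TD replicate 1 ended its call (adjusted p = 0.0671, 0.0941 and 0.0808 by edgeR), with 1 regulator then lower. With A549 replicate 1 left out, 2 regulators were higher.

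**Figure D5:**
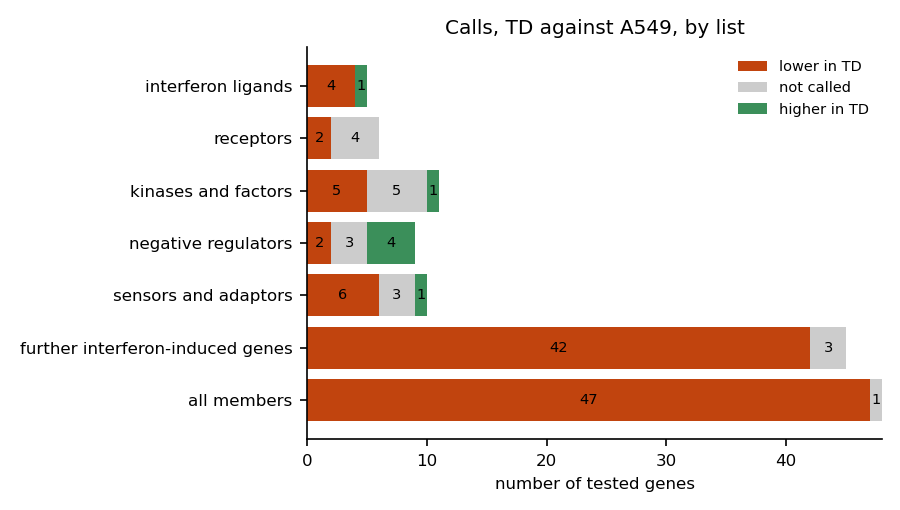
Number of tested genes (horizontal axis) called lower, not called and called higher in TD for each list of the interferon pathway and for the class itself. The class and the further interferon-induced genes are almost wholly lower. Kinases and negative regulators have calls in both directions, and receptors are either lower or not called. The counts include genes that could enter the test only through A549.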

How the data were processed

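The authors deposited unnormalized read counts for each gene in 4 libraries. Tools, per the submitters' processing notes, were FastQC 0.11.8, STAR 2.7.1a and HTSeq 0.11.2 with build hg19 (GRCh37). Strand setting, read filters and annotation release were not given in the sources used here, so the 19 genes of the class that overlap another tested gene, and near-identical paralogs, are uncertain. Totals of reads given to no gene stayed out of library sizes and tests. Those outside genes were 6.12% to 7.79% of all reads, those in several genes 2.34% to 2.56%, and those with several alignments 8.08% to 9.22%. Symbols were matched for 51996 of 57820 identifiers. Gene types, chromosomes and exon lengths came from GENCODE 29 (GRCh38), and promoters from RefSeq (GRCh38.p14), and no count was placed by these coordinates.

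TD was compared with A549 by the quasi-likelihood test of edgeR 4.0.16 (R 4.3.3) with TMM scaling, the default filter (minimum count 10) and Benjamini-Hochberg adjustment over all genes tested. It was also run on simulated counts, but their spread was set below that of the main fit here. That run therefore gives no support to the calls in these data. Each SE was derived from the fitted log2 change and the F value. A count of 0 in a group was bounded with 3 counts over the group, and 1 to 3 counts were given exact 95% counting intervals, which cover counting error only. Percent remaining is the mean TD level as a percent of the mean A549 level, over 2 libraries each. Whether replicates were separate cultures is not stated in the labels, so the p-values cover only differences among these libraries, possibly technical ones. No 2 libraries held identical values. Genes and lists were chosen with earlier results of these data known. In each role group, values in each library were given for the gene with the highest A549 level, for those with the largest and smallest change and for those not called; others were added after their values were seen. In each pathway list, the 2 called genes with the largest change in each direction were named. Some genes that this rule would name are not reported here. IKBKE and CCL5 were not matched to the files. Alternatives used DESeq2 1.42.0 and limma-voom (limma 3.58.1).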

Additional observations from a re-analysis of the deposited data

How the results depend on the processing

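The number of genes of the class called lower was 47 in the main comparison and 46 to 49 under all alternatives, and 0 were called higher under any. These were 3 other scalings, DESeq2's test, limma-voom, no filter, a filter of 5 CPM in 2 libraries, pseudogenes left out, thinning to the smallest library, the replicate block, and each library left out, with and without pseudogenes, the last pair of choices being made after seeing the data. In all, 46 genes were called under every one, and no change reversed. Over all genes, 3833 were higher and 3809 lower, and with 1 library left out these counts ran from 2114 to 5329 and from 2236 to 6140, lowest without A549 replicate 1. When 1 A549 library was dropped, the spread came from the TD pair alone (34.1% and 34.0% biological variation, against 20.1%), since the lone A549 library is assumed to vary like the TD pair. When 1 TD library was dropped it came from the A549 pair alone (7.08% for either), which makes calls easier. Without pseudogenes it was 7.90%. Equal replicate numbers did not deviate together (r = -0.0787 over 17785 genes), and the replicate block gave 2964 higher and 2847 lower genes, with 47 of the class lower. Library totals as the scaling moved the median of all genes to -0.12. Totals of 26729278 to 44133836 set a limit of 0.068 to 0.112 CPM for 3 counts in a library. EPSTI1 and RTP4 were kept out by the filter, and with no filter edgeR called both lower (adjusted p = 0.00055 and 0.0255), while DESeq2 called EPSTI1 lower (0.0158) and gave RTP4 no adjusted p.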

Other observations

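The genes next to the class were divided in direction. For each tested gene of the class, the nearest tested protein-coding gene on each side outside the class was taken from the GENCODE 29 order, which gave 66 neighbours. Of these, 17 were lower in TD (25.8%, against 21.4% of all genes tested), 18 were higher and 31 were not called, and their median log2 change was 0.06. LIPA, a lysosomal lipase gene on one flank of the IFIT cluster, had means of 62.0 CPM in TD and 102 CPM in A549. SLC16A12, on the other flank, had means of 0.866 CPM in TD and 0.154 CPM in A549. PALLD, an actin-binding protein gene that overlaps DDX60L on the opposite strand, had means of 458 CPM in TD and 43.3 CPM in A549, and reads of the pair cannot be told apart if strand was not counted. CDK6, next to the SAMD9 genes, had means of 240.0 CPM in TD and 49.8 CPM in A549. The neighbours named here were chosen after their values were seen.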
